A study of Canis lupus familiaris with 15 samples.

Results

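The dog genes taken here are those whose symbols begin like the names of interferon and NF-kB signalling genes (IFI, IFN, IRF, ISG, OAS, MX1, MX2, STAT with a digit, GBP, TRIM, NFKB, REL, TRAF, TLR, IRAK, MYD88 or NLR). Symbols came from the study's lists of differing genes alone, which name 2970 of their 3261 Ensembl identifiers, and 43 genes of the 23630 in the count table carried such a symbol. The choice therefore rests on measured values. A gene had to stand in a list of mid-gestation over luteolysis, luteolysis over antigestagen, luteal regression over luteolysis or mid-gestation over antigestagen, so values in these 4 contrasts are given as a description, without a p-value for any single gene. All 43 genes passed the filter on low counts in at least 1 group.

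RNA-Seq was performed on the corpora lutea (CL) of 15 cross-breed bitches aged 2 to 8 years, with 1 library per dog. The pregnant dogs at mid-gestation (n = 5) were operated on between days 35 and 40. The antigestagen group (n = 5) was pregnant, too, and received aglepristone, which blocks the progesterone (P4) receptor, at 10 mg/kg in 2 applications 24 h apart between days 40 and 45, with CL collected 24 h after the last application. The luteolysis group (n = 3) was pregnant near term. From day 58, P4 was measured every 6 h, and CL were taken once 3 consecutive values fell below 2 to 3 ng/ml. The luteal regression group (n = 2) was non-pregnant and sampled at day 65. Another luteal regression dog was not analysed here. Values are listed by dog in this order: Nescafe, Turgay, Dardanel, Gold and Kurtulus at mid-gestation, Citir, Suzan, Birnur, Seran and Zeynep after antigestagen, Amy, Kimba and Senta in luteolysis, and Lissy and Mara in luteal regression.

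Interferons are cytokines that bind receptors on almost any cell and, through JAK kinases and STAT factors, switch on a set of antiviral effector genes. Interferon itself is produced after sensors and Toll-like receptors recognise nucleic acids or microbial products, and interferon-regulatory factors (IRF) drive its transcription. NF-kB is a family of dimeric transcription factors that inhibitor proteins hold in the cytoplasm until a signal, such as a Toll-like receptor or a cytokine, releases them. In the CL, immune cells and their cytokines are known to take part in formation and breakdown of the gland, and in ruminants interferon from the embryo acts on the endometrium and CL during the recognition of pregnancy.

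Expression is given as CPM, a gene's count brought to a common library size after scaling by the trimmed mean of M-values (TMM). Each log2 ratio comes from the quasi-likelihood model of edgeR over all 15 dogs, with its standard error (SE). A gene is "called" where p lies below 0.01 and p adjusted by Benjamini-Hochberg over all genes tested lies below 0.1. The genes named here were chosen from lists of genes differing in some of these contrasts. In the contrasts of those lists, a call therefore only describes a named gene and is no independent test of it. Libraries held between 8558743 and 26284315 counted reads. The table holds whole CL tissue, in which fewer cells of a type and less RNA per cell cannot be told apart.

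By role, the 43 genes fall into 6 groups. There were 12 interferon-induced effectors (GBP5, IFI44, IFI44L, IFIT2, IFIT3, ISG15, MX1, MX2, OAS1, OAS3, OASL1 and TRIM22), 4 regulatory factors or adaptors (IRF4, IRF7, TRAF3 and TRIM25), 6 sensors or receptors (IFIH1, NLRP1, TLR4, TLR5, TLR6 and TLR9) and 6 NF-kB subunits or inhibitors (NFKB2, NFKBIA, NFKBIB, REL, RELA and RELB). The remaining genes were 8 other TRIM proteins and 7 genes taken by name only.

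**Figure D1:**
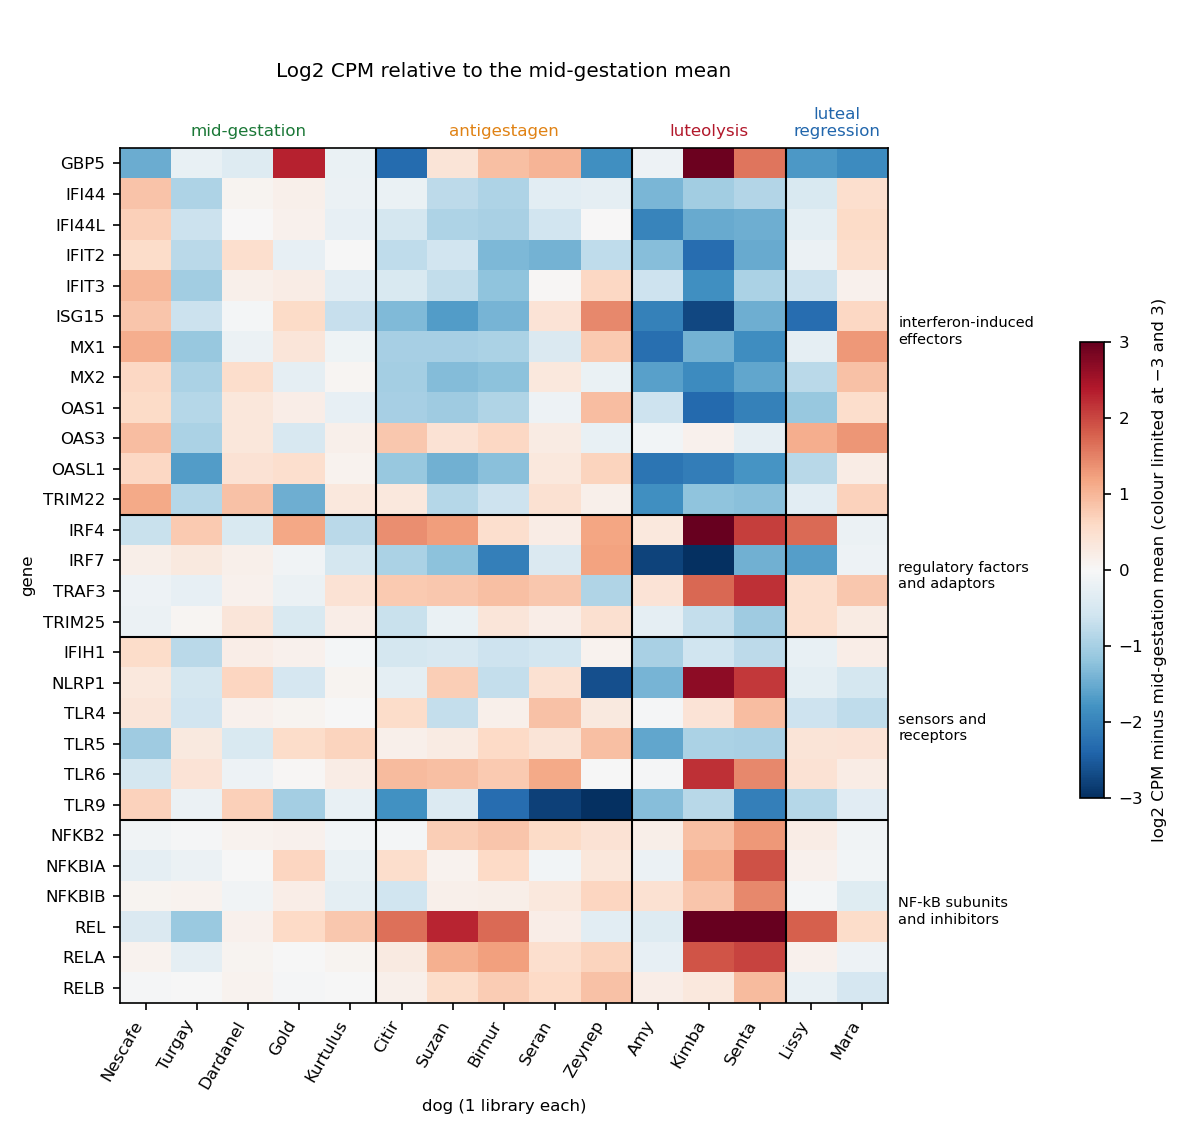
Log2 CPM of the 28 genes of both pathways in each of the 15 dogs, minus the mid-gestation mean of the gene. Columns are dogs by group, rows are genes by role, and the colour scale is limited at −3 and 3. Most effectors were blue in the 3 luteolysis columns, and the NF-kB rows were redder in Kimba and Senta than in Amy.

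Most of the interferon-induced effectors had their lowest expression in luteolysis. In mid-gestation over luteolysis, 11 of 12 had a log2 ratio above 0, with a median of 1.73 (range −1.33 to 2.28), and 7 were called higher and 0 lower. Over all 14669 genes tested, the median log2 ratio was −0.02. In that contrast 2.43% of all genes were called higher and 5.73% lower. The members were listed for differing in this or a related contrast, and so nothing is read from the counts. The effector below 0 was GBP5. It was also the one below 0 in luteal regression over luteolysis, where 11 of 12 were above 0 with a median of 1.76. There 4 effectors were called higher and 0 lower, and 1.52% of all genes were called higher and 3.58% lower. Both contrasts share the 3 luteolysis dogs.

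MX1 (ENSCAFG00000010172), a GTPase that traps viral nucleocapsids, read 111, 23.8, 46.5, 67.3 and 48.0 CPM at mid-gestation, 26.1, 26.5, 27.3, 38.9 and 91.0 CPM under antigestagen, 10.9, 19.6 and 14.3 CPM in luteolysis and 43.4 and 130.2 CPM in luteal regression. The 3 luteolysis dogs lay below every other dog. Its log2 ratio was 1.98 ± 0.55 (SE) in mid-gestation over luteolysis, 2.53 ± 0.63 in luteal regression over luteolysis and −1.48 ± 0.54 in luteolysis over antigestagen. Turgay, the lowest dog at mid-gestation, stood only a little above Kimba, the highest in luteolysis. OASL1 (ENSCAFG00000010511), of the oligoadenylate synthetase family, read 7.45, 1.44, 6.56, 6.89 and 5.18 CPM at mid-gestation, 2.11, 1.69, 1.96, 6.03 and 7.77 CPM under antigestagen, 0.976, 1.07 and 1.33 CPM in luteolysis and 2.64 and 5.59 CPM in luteal regression. It was 4.86-fold higher at mid-gestation than in luteolysis (log2 ratio 2.28 ± 0.63), and again no dog of another group was as low as the 3 luteolysis dogs.

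IFIT2 (ENSCAFG00000009612), which belongs to the RNA-binding proteins with tetratricopeptide repeats, read 14.2, 5.50, 13.8, 8.09 and 9.56 CPM at mid-gestation, 5.67, 6.46, 3.70, 3.55 and 5.65 CPM under antigestagen, 3.90, 1.90 and 3.30 CPM in luteolysis and 8.56 and 13.9 CPM in luteal regression. All luteolysis dogs were below all dogs at mid-gestation and in luteal regression, whereas they overlapped with the antigestagen group. Its log2 ratio was 1.76 ± 0.37 in mid-gestation over luteolysis, 1.90 ± 0.43 in luteal regression over luteolysis and 1.03 ± 0.30 in mid-gestation over antigestagen. ISG15 (ENSCAFG00000019348), a ubiquitin-like modifier attached to proteins under interferon, read 27.3, 9.76, 14.6, 22.5 and 9.31 CPM at mid-gestation, 6.00, 4.67, 5.71, 20.4 and 41.6 CPM under antigestagen, 3.68, 2.21 and 5.45 CPM in luteolysis and 3.03 and 23.3 CPM in luteal regression. The luteolysis dogs were below all mid-gestation dogs and overlapped with Lissy, who was far below Mara. The log2 ratio of ISG15 in mid-gestation over luteolysis was 2.15 ± 0.80, and it was not called.

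Among the effectors given by group means (± SD), IFI44L (ENSCAFG00000020343) had 53.1 ± 19.2 CPM at mid-gestation, 34.6 ± 10.2 CPM under antigestagen, 16.1 ± 2.99 CPM in luteolysis and 58.4 ± 24.7 CPM in luteal regression. It and its neighbour IFI44 encode cytoplasmic proteins induced by interferon. IFI44L was called in 3 contrasts, with a log2 ratio of 1.72 ± 0.32 in mid-gestation over luteolysis, 1.85 ± 0.37 in luteal regression over luteolysis and −1.09 ± 0.32 in luteolysis over antigestagen. The call in luteal regression over luteolysis was lost without Senta, Lissy or Mara (log2 ratio 1.34 to 2.23 with each dog left out). In luteolysis over antigestagen it was lost in 10 of 15 refits with 1 dog left out (log2 ratio −1.20 to −0.91), namely without any luteolysis dog, without Citir, Birnur, Seran or Zeynep, and without Dardanel, Gold or Kurtulus. IFI44 (ENSCAFG00000020342) had 55.4 ± 24.2 CPM at mid-gestation, 36.9 ± 8.20 CPM under antigestagen, 24.0 ± 4.16 CPM in luteolysis and 54.8 ± 24.9 CPM in luteal regression. MX2 (ENSCAFG00000010167), the second Mx GTPase, had 15.1 ± 6.03 CPM at mid-gestation, 9.62 ± 5.12 CPM under antigestagen, 4.26 ± 0.483 CPM in luteolysis and 16.8 ± 12.5 CPM in luteal regression. Its luteolysis dogs were below all other dogs, and the log2 ratio in mid-gestation over luteolysis was 1.82 ± 0.49. TRIM22 (ENSCAFG00000024867), an antiviral ubiquitin ligase, had 6.33 ± 4.10 CPM at mid-gestation, 5.01 ± 1.89 CPM under antigestagen, 1.86 ± 0.439 CPM in luteolysis and 6.19 ± 3.01 CPM in luteal regression. OAS1 (ENSCAFG00000023556), which makes the oligoadenylates that activate RNase L, had 53.3 ± 18.7 CPM at mid-gestation, 43.2 ± 30.3 CPM under antigestagen, 18.3 ± 12.6 CPM in luteolysis and 47.5 ± 34.8 CPM in luteal regression. IFIT3 (ENSCAFG00000031614), a partner of IFIT2, had 7.39 ± 3.81 CPM at mid-gestation, 5.74 ± 2.94 CPM under antigestagen, 3.14 ± 1.26 CPM in luteolysis and 5.72 ± 2.14 CPM in luteal regression. OAS1 and IFIT3 were not called in any contrast, and in both the dogs of luteolysis and mid-gestation overlapped.

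GBP5 and OAS3 did not follow the other effectors. GBP5 (ENSCAFG00000024540), a guanylate-binding protein induced mainly by interferon gamma, read 1.05, 2.67, 2.40, 16.2 and 2.73 CPM at mid-gestation, 0.556, 4.15, 5.97, 6.57 and 0.808 CPM under antigestagen, 2.85, 24.8 and 9.91 CPM in luteolysis and 0.880 and 0.770 CPM in luteal regression. It was highest in Kimba and low in both luteal regression dogs, and its log2 ratio was −1.33 ± 0.85 in mid-gestation over luteolysis and −3.92 ± 1.34 in luteal regression over luteolysis. OAS3 (ENSCAFG00000008929), the large oligoadenylate synthetase, read 8.40, 2.21, 5.55, 3.08 and 4.82 CPM at mid-gestation, 7.67, 5.90, 6.75, 5.21 and 3.74 CPM under antigestagen, 4.13, 4.74 and 3.59 CPM in luteolysis and 9.44 and 11.03 CPM in luteal regression. Here the 3 luteolysis dogs lay within the range of mid-gestation (log2 ratio 0.21 ± 0.37), and both luteal regression dogs were above every other dog.

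**Figure D2:**
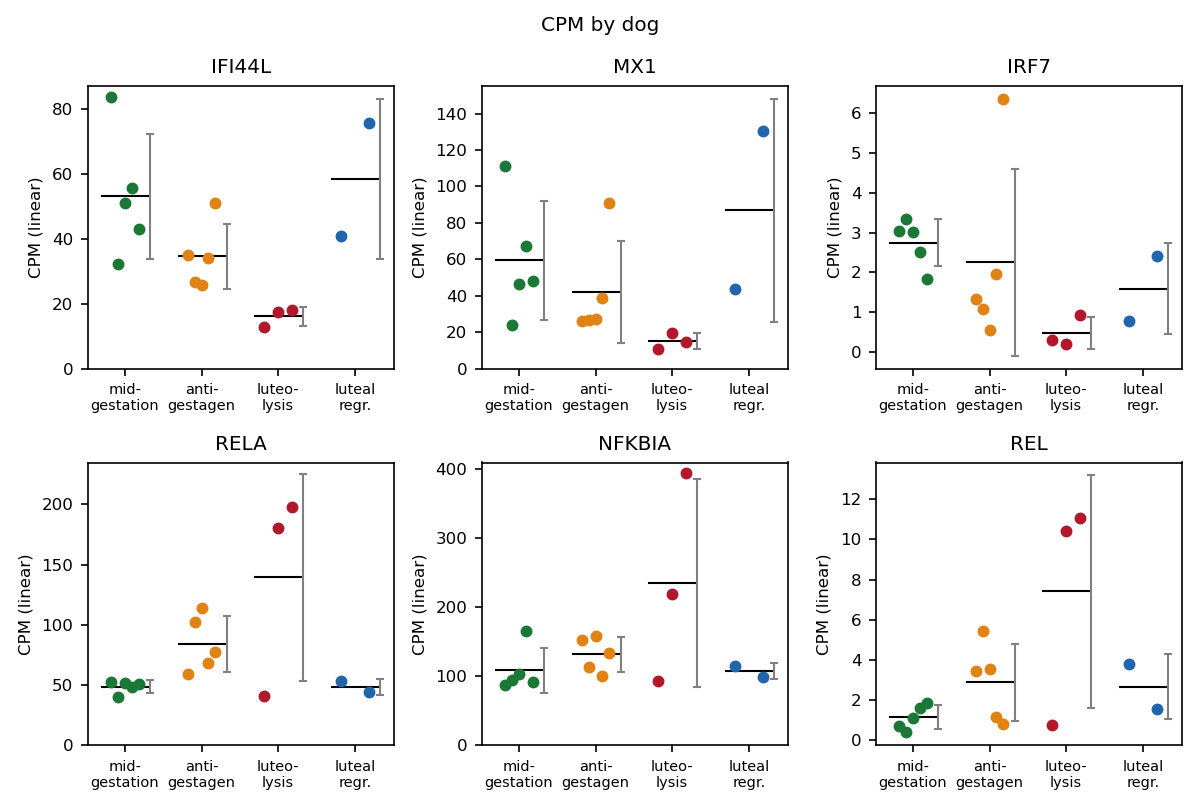
CPM (linear axis) of 3 interferon genes (IFI44L, MX1 and IRF7) and 3 NF-kB genes (RELA, NFKBIA and REL) in each dog, with 1 point per dog, the group mean as a black line and the SD as a grey bar. Luteolysis points were the lowest for IFI44L and MX1, and for the NF-kB genes Kimba and Senta stood above the rest while Amy lay with the mid-gestation dogs.

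Groups that do not overlap were counted as well. At mid-gestation 6 of 12 effectors had all dogs above all luteolysis dogs, and in luteal regression 8 of 12 did. Over all genes tested, 4.27% were so placed in the former and 18.6% in the latter contrast, where only 2 dogs are set against 3. In luteolysis over antigestagen, 5 of 12 effectors had all luteolysis dogs below all antigestagen dogs (IFI44L, MX1, MX2, OASL1 and TRIM22) and 0 had them above. Over all genes these shares were 3.53% and 4.21%. Of these 5, IFI44L alone was called, with the limit given above.

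Without Senta, 1 of 12 effectors was called in mid-gestation over luteolysis (median log2 ratio 1.84), without Kimba 2 (median 1.61), and without the mid-gestation dog Nescafe 4 (median 1.47). Shares of all genes called in such refits are not given here, so lost calls are not read as particular to the effectors. Without Senta, Lissy or Mara, 0 effectors were called in luteal regression over luteolysis.

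Among the regulatory factors, IRF7 (ENSCAFG00000006557), the factor that amplifies type I interferon transcription, read 3.04, 3.34, 3.03, 2.51 and 1.83 CPM at mid-gestation, 1.33, 1.08, 0.566, 1.95 and 6.36 CPM under antigestagen, 0.300, 0.198 and 0.927 CPM in luteolysis and 0.782 and 2.41 CPM in luteal regression. All 3 luteolysis dogs were below all mid-gestation dogs, with a log2 ratio of 2.53 ± 0.77 in mid-gestation over luteolysis and −2.22 ± 0.77 in luteolysis over antigestagen. The luteolysis values rest on counts of 4, 5 and 16, so the order among low dogs is uncertain. The antigestagen group was spread widely, with Zeynep above all other dogs and Birnur among the luteolysis dogs. IRF4 (ENSCAFG00000009156), a factor of lymphocytes and some macrophages, read 0.367, 1.18, 0.442, 1.57 and 0.324 CPM at mid-gestation, 1.89, 1.69, 0.959, 0.769 and 1.62 CPM under antigestagen, 0.826, 7.59 and 3.07 CPM in luteolysis and 2.35 and 0.564 CPM in luteal regression. Kimba and Senta had the 2 highest values, and Amy lay within mid-gestation. Its log2 ratio in mid-gestation over luteolysis was −2.31 ± 0.67, opposite to that of IRF7.

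TRAF3 (ENSCAFG00000018075), an adaptor of Toll-like and tumour necrosis factor receptors that also restrains the non-canonical NF-kB route, had 6.08 ± 1.31 CPM at mid-gestation, 9.20 ± 3.41 CPM under antigestagen, 18.6 ± 9.95 CPM in luteolysis and 9.51 ± 1.35 CPM in luteal regression. It was called lower at mid-gestation than in luteolysis (log2 ratio −1.62 ± 0.38), though not without Senta. TRIM25 (ENSCAFG00000017390), the ubiquitin ligase that activates the RNA sensor RIG-I, had 211 ± 45.2 CPM at mid-gestation, 220.3 ± 64.9 CPM under antigestagen, 132 ± 37.3 CPM in luteolysis and 269 ± 32.4 CPM in luteal regression. Its log2 ratio was 0.68 ± 0.27 in mid-gestation over luteolysis and 1.03 ± 0.32 in luteal regression over luteolysis, and neither was called.

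The sensors and receptors did not move together. TLR5 (ENSCAFG00000011368), the receptor for flagellin, had 3.39 ± 1.52 CPM at mid-gestation, 4.34 ± 0.968 CPM under antigestagen, 1.34 ± 0.317 CPM in luteolysis and 4.11 ± 0.0691 CPM in luteal regression. It was called in 3 contrasts: its log2 ratio was 1.33 ± 0.40 in mid-gestation over luteolysis, 1.60 ± 0.47 in luteal regression over luteolysis and −1.68 ± 0.41 in luteolysis over antigestagen. With 1 dog left out, these calls were lost in 8, 9 and 2 of 15 refits. In the first contrast these were the refits without a luteolysis or luteal regression dog or without Turgay, Gold or Kurtulus (log2 ratio 1.15 to 1.52). In the next they were those without a luteolysis or luteal regression dog, Suzan, Birnur, Gold or Kurtulus (1.46 to 1.73), and in the last those without Kimba or Senta. IFIH1 (ENSCAFG00000010438), the cytoplasmic sensor of long double-stranded RNA, had 27.6 ± 8.53 CPM at mid-gestation, 20.1 ± 4.66 CPM under antigestagen, 15.4 ± 2.04 CPM in luteolysis and 26.3 ± 5.46 CPM in luteal regression, and a log2 ratio of 0.84 ± 0.27 in mid-gestation over luteolysis. Conversely, TLR6 (ENSCAFG00000016172), which pairs with TLR2 to bind bacterial lipopeptides, had 1.67 ± 0.423 CPM at mid-gestation, 2.91 ± 0.789 CPM under antigestagen, 4.67 ± 3.15 CPM in luteolysis and 2.07 ± 0.248 CPM in luteal regression, and it was called lower at mid-gestation than in luteolysis (log2 ratio −1.49 ± 0.42), a call lost without Kimba, Senta, Nescafe, Dardanel or Gold.

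NLRP1 (ENSCAFG00000015493), a sensor that forms inflammasomes, read 0.735, 0.360, 0.946, 0.365 and 0.611 CPM at mid-gestation, 0.445, 1.03, 0.305, 0.828 and 0 CPM under antigestagen, 0.150, 4.23 and 2.84 CPM in luteolysis and 0.440 and 0.359 CPM in luteal regression. Zeynep had a count of 0, which allows up to 0.303 CPM at this depth. Kimba and Senta were above all other dogs and Amy below all except Zeynep, and the log2 ratio in mid-gestation over luteolysis was −2.01 ± 0.78. Amy's value rests on a count of 2, so the order among the low dogs is uncertain. TLR4 (ENSCAFG00000003518), the receptor for lipopolysaccharide, read 28.9, 15.1, 24.7, 23.6 and 22.2 CPM at mid-gestation, 33.0, 13.5, 24.8, 41.3 and 27.3 CPM under antigestagen, 21.8, 29.7 and 42.7 CPM in luteolysis and 14.5 and 13.1 CPM in luteal regression. Both luteal regression dogs were below all dogs at mid-gestation and in luteolysis, with a log2 ratio of −1.19 ± 0.40 in luteal regression over luteolysis. TLR9 (ENSCAFG00000023201), which binds unmethylated CpG DNA in endosomes, read 1.78, 0.925, 1.83, 0.470 and 0.899 CPM at mid-gestation, 0.222, 0.769, 0.131, 0.0592 and 0 CPM under antigestagen, 0.375, 0.553 and 0.174 CPM in luteolysis and 0.538 and 0.821 CPM in luteal regression. After antigestagen every dog but Suzan was below all mid-gestation dogs. At such low counts the order of single dogs is uncertain, and Zeynep again had a count of 0.

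The NF-kB genes went the other way from the effectors. In mid-gestation over luteolysis all 6 had a log2 ratio below 0 (median −1.04, range −2.67 to −0.53), and 5 were called lower and 0 higher, where 5.73% of all genes were called lower and 2.43% higher. All 6 were also below 0 in luteal regression over luteolysis (median −1.16), with 2 called lower (NFKBIB and RELB), where 3.58% of all genes were. In that contrast NFKBIB lost its call in 11 of 15 refits with 1 dog left out (log2 ratio −1.35 to −0.81) and kept it only without Amy, Kimba, Citir or Zeynep. RELB lost its call there without Senta, Lissy, Mara, Birnur, Dardanel or Gold. The difference was larger in Kimba and Senta than in Amy.

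REL (ENSCAFG00000002981), the c-Rel subunit known best from lymphocytes, read 0.735, 0.411, 1.14, 1.62 and 1.87 CPM at mid-gestation, 3.45, 5.43, 3.57, 1.18 and 0.808 CPM under antigestagen, 0.751, 10.4 and 11.1 CPM in luteolysis and 3.81 and 1.54 CPM in luteal regression. Kimba and Senta were far above the next highest dog, Suzan, and Amy was within mid-gestation. Its log2 ratio was −2.67 ± 0.72 in mid-gestation over luteolysis and −1.32 ± 0.66 in mid-gestation over antigestagen. RELA (ENSCAFG00000013334), the main activating subunit of the canonical route, read 52.3, 40.1, 51.5, 48.3 and 51.1 CPM at mid-gestation, 58.7, 102, 114, 68.3 and 76.9 CPM under antigestagen, 40.8, 180.2 and 198 CPM in luteolysis and 53.3 and 43.8 CPM in luteal regression. Again Kimba and Senta were above all other dogs and Amy was among the mid-gestation dogs. The log2 ratio of RELA was −1.52 ± 0.35 in mid-gestation over luteolysis and −0.79 ± 0.31 in mid-gestation over antigestagen, where all 5 antigestagen dogs were above all 5 mid-gestation dogs. Each SE comes from a spread fitted per gene over all groups. It need not reflect the spread within luteolysis, where the SD of RELA was 86.0 CPM against 5.02 CPM at mid-gestation.

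NFKBIA (ENSCAFG00000013418), the inhibitor that NF-kB itself induces, read 86.7, 93.6, 104, 165 and 91.9 CPM at mid-gestation, 152, 113, 159, 99.4 and 134 CPM under antigestagen, 93.2, 219 and 394 CPM in luteolysis and 115 and 98.7 CPM in luteal regression. Senta was highest, followed by Kimba, and Amy was again among the mid-gestation dogs (log2 ratio in mid-gestation over luteolysis −1.12 ± 0.34). NFKBIB (ENSCAFG00000005634), the second inhibitor, had 12.9 ± 1.73 CPM at mid-gestation, 14.7 ± 4.19 CPM under antigestagen, 25.1 ± 8.89 CPM in luteolysis and 11.1 ± 1.57 CPM in luteal regression. NFKB2 (ENSCAFG00000010155), precursor of the subunit of the non-canonical route, had 40.6 ± 3.20 CPM at mid-gestation, 58.9 ± 12.9 CPM under antigestagen, 73.9 ± 27.2 CPM in luteolysis and 42.5 ± 7.16 CPM in luteal regression. RELB (ENSCAFG00000004597), its partner, had 28.3 ± 1.29 CPM at mid-gestation, 43.2 ± 7.88 CPM under antigestagen, 40.8 ± 12.1 CPM in luteolysis and 21.9 ± 3.04 CPM in luteal regression. For NFKB2, NFKBIB and RELB, Amy too was above all mid-gestation dogs, so that the groups did not overlap. Such a gap with luteolysis higher was found for 5.49% of all genes. The 3 genes had log2 ratios in mid-gestation over luteolysis of −0.86 ± 0.23, −0.96 ± 0.26 and −0.53 ± 0.19. RELB, like RELA, was higher in every antigestagen dog than in every mid-gestation dog, and groups so placed were found for 0.667% of all genes in that contrast, and the reverse for 0.569%. Neither gene was called there.

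Without Senta or without Kimba, 0 of 6 NF-kB genes were called in mid-gestation over luteolysis, and their median log2 ratio was −0.60 and −1.10. Without Amy all 6 were called (median −1.34). Without the mid-gestation dog Dardanel 2 were called, and without Nescafe 3. As the shares of all genes called in these refits are not given, the changes are not read as particular to the NF-kB genes.

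The summed leukocyte markers were highest in the same dogs, Kimba and Senta, mainly through 1 gene. Markers were paired with identifiers through the study's lists of differing genes alone, so they were also chosen by measured values. Only 8 of 27 markers in the lists for macrophages and monocytes, neutrophils, T and NK cells, B and plasma cells, plasmacytoid dendritic cells and leukocytes as a whole could be paired with an identifier, and none of these was at 0 in all dogs. Their summed level was 37.3 to 64.4 CPM at mid-gestation, 48.3 to 79.1 CPM after antigestagen and 17.5 to 23.9 CPM in luteal regression. In luteolysis it was 28.0 CPM in Amy, 320.1 CPM in Kimba and 173 CPM in Senta. Most of this was GZMB, a granzyme of cytotoxic cells, with 0.676 CPM in Amy, 206 CPM in Kimba and 110 CPM in Senta, whereas the T cell genes CD3E and CD2 had group means of 0.585 and 2.80 CPM in luteolysis against 2.00 and 8.75 CPM at mid-gestation. Without GZMB the sum was 27.3 CPM in Amy, 114 CPM in Kimba and 63.0 CPM in Senta, and Senta was then below Seran (75.8 CPM) and Zeynep (74.7 CPM). The macrophage and monocyte markers were about level in Seran (42.1 CPM) and Kimba (41.9 CPM), and the neutrophil markers were higher in Kimba (67.3 CPM) and Citir (35.1 CPM) than in Senta (31.6 CPM). The endothelial markers PECAM1 and VWF together read 272 CPM in Amy, 662 CPM in Kimba and 553 CPM in Senta, compared with 174 to 435 CPM at mid-gestation. The part of these cells in the expression of REL, RELA, NFKBIA, IRF4, NLRP1 and GBP5 was not tested. The labelled tissue could not be checked against luteal steroidogenic markers, because 0 of 6 were paired with an identifier.

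**Figure D3:**
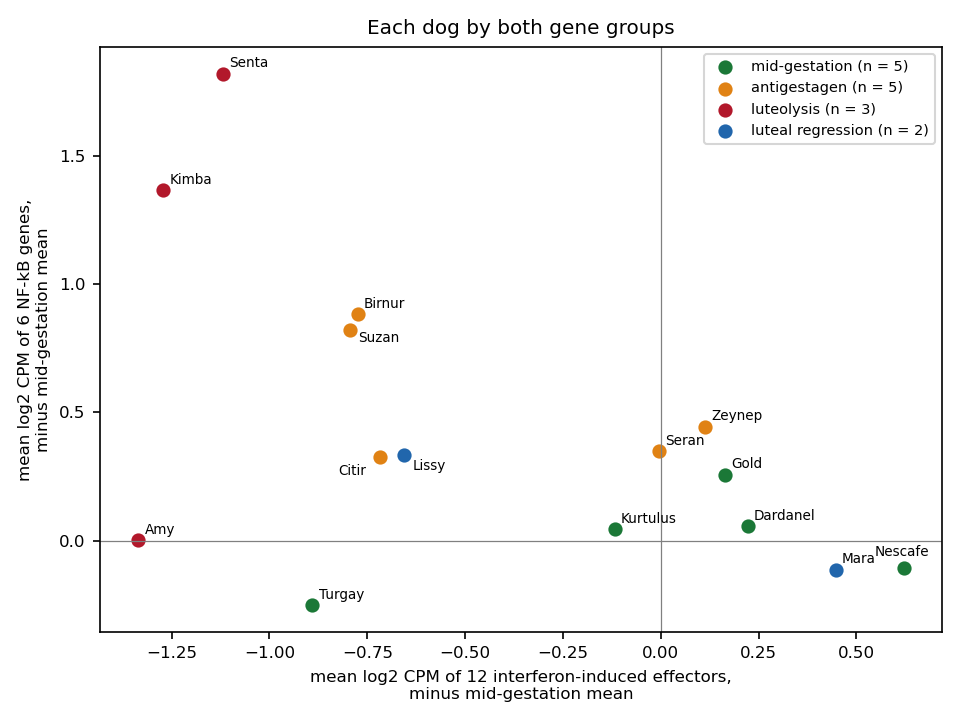
Each of the 15 dogs by its mean log2 CPM over the 12 interferon-induced effectors (x axis) and over the 6 NF-kB genes (y axis), both minus the mid-gestation mean. The 3 luteolysis dogs lay furthest left, at −1.34 (Amy), −1.27 (Kimba) and −1.12 (Senta), and on the y axis at 0.00, 1.37 and 1.82.

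The mean over the effectors placed the 3 luteolysis dogs below every other dog. Relative to the mid-gestation mean, the log2 values were −1.34 in Amy, −1.27 in Kimba and −1.12 in Senta, and ranged from −0.89 to 0.62 at mid-gestation, from −0.79 to 0.11 after antigestagen and from −0.66 to 0.45 in luteal regression. The mean over the NF-kB genes, in contrast, spread the luteolysis dogs from 0.00 in Amy to 1.82 in Senta. It ranged from −0.25 to 0.26 at mid-gestation and from 0.33 to 0.88 after antigestagen, and from −0.11 to 0.33 in luteal regression. As the genes were chosen for such differences, the separation of the groups has no test. Dogs of 1 group could be far apart: at mid-gestation Nescafe had 11 of 12 effectors above the mean of the group and Turgay 0 of 12.

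Across all members, 23 of 42 tested were called in mid-gestation over luteolysis (13 higher and 10 lower), where 8.16% of all genes were. For luteal regression over luteolysis it was 9 of 43 (6 higher and 3 lower) against 5.11%, and in luteolysis over antigestagen 3 of 41, all lower (IFI44L, TLR5 and TRIM11), against 4.75% of all genes, with 3.12% higher and 1.62% lower. These counts changed with single dogs. Shares of all genes called in the refits with 1 dog left out are not given here. The members' counts alone do not tell a loss or gain of calls over all genes apart from one in the members. In mid-gestation over luteolysis 1 member was called without Senta, 4 without Kimba, 10 without Nescafe, 12 without Dardanel and 15 without Gold. With only the compared groups in the model it was 9. In luteal regression over luteolysis 0 were called without Senta, Lissy or Mara or with only the compared groups, 5 without Birnur or Gold and 19 without Amy. In luteolysis over antigestagen 0 were called without Senta or Kimba, and 15 without Amy. In mid-gestation over antigestagen edgeR called 0 of 42 members and 0% of all genes. In that contrast an unadjusted p-value below 0.05 was found for 10 members and for 6.81% of all genes, DESeq2 called 1 member (0.604% of all genes) and limma-voom 0. The effectors had a median log2 ratio of 0.47 there and the NF-kB genes one of −0.57.

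**Figure D4:**
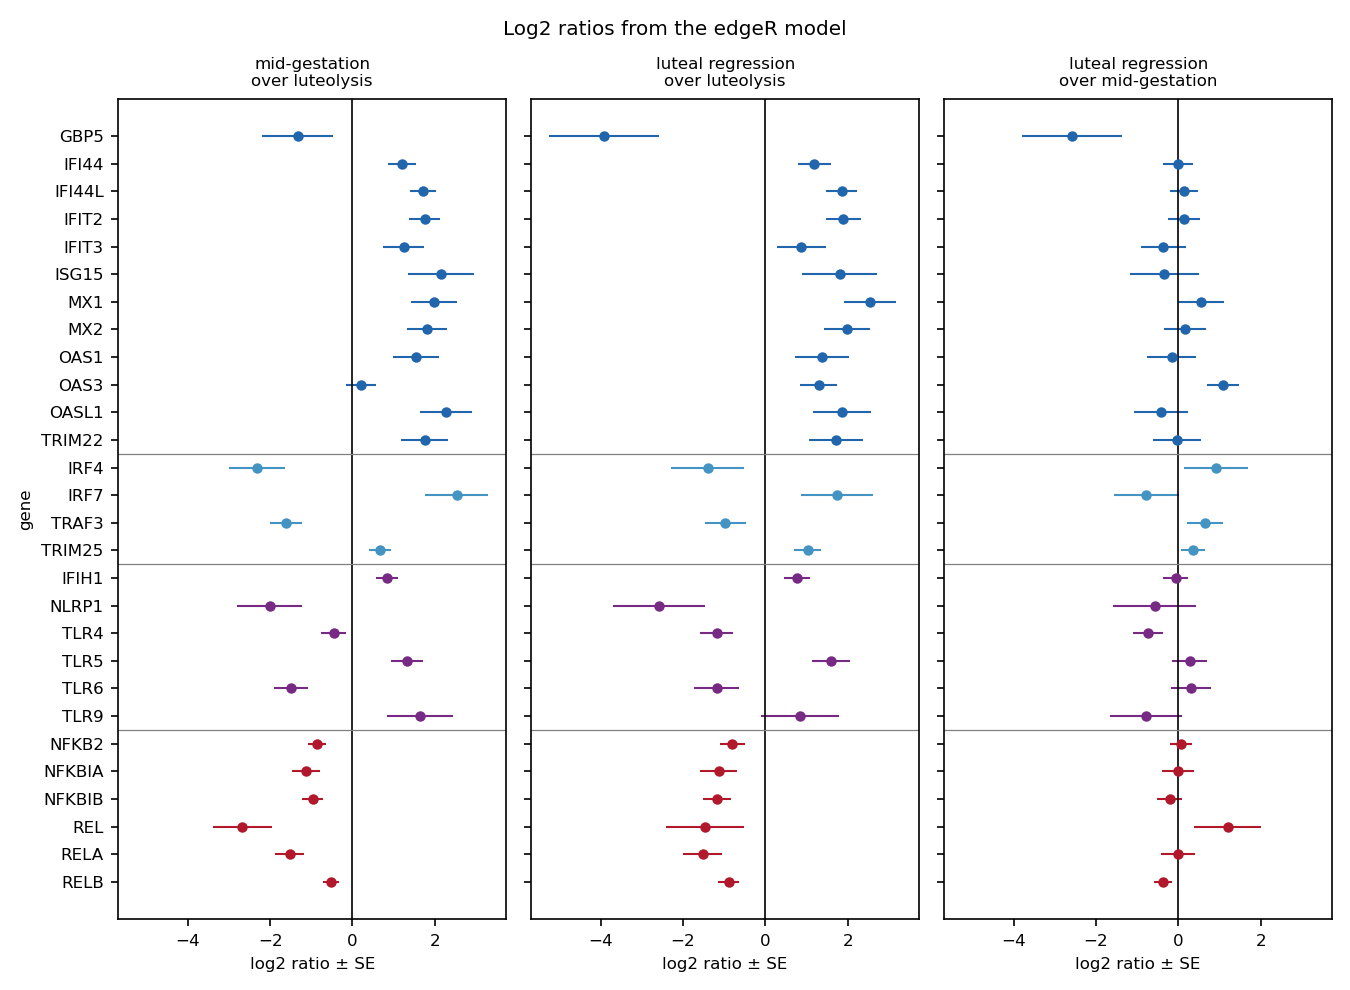
Log2 ratio and SE from the edgeR model for the 28 genes of both pathways in 3 contrasts, coloured by role. Most effectors lay near 2 in the left and middle panels and near 0 in the right panel, and the 6 NF-kB genes lay below 0 in the left and middle panels.

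Luteal regression over mid-gestation and luteal regression over antigestagen were not among the study's lists. They ask whether expression in the non-pregnant, slowly regressing CL differed from that of the CL of pregnancy with and without P4 receptor blockade. Both can be formed from listed contrasts of the same dogs. Their p-values and intervals are therefore not independent of the choice of genes and are given as a description. Between luteal regression and mid-gestation, edgeR called 0 of 42 members, as it called 0% of all genes. An unadjusted p-value below 0.05 was found for 3 members and for 14.1% of all genes, DESeq2 called 1 member (2.26% of all genes) and limma-voom 5 (18.7%).

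The 12 effectors had a median log2 ratio of −0.02 in luteal regression over mid-gestation, while their single intervals were wide. OAS3 was 2.13-fold higher (log2 ratio 1.09, 95% interval 0.25 to 1.93), with both luteal regression dogs above all 5 mid-gestation dogs, and had an adjusted p-value of 0.319 in edgeR. For GBP5 the log2 ratio was −2.59 (95% interval −5.19 to 0.01, adjusted p-value 0.356 in edgeR), and both dogs were below all mid-gestation dogs. Over all genes, 14.1% had the luteal regression dogs above all mid-gestation dogs and 16.4% below. MX1 had a log2 ratio of 0.55 (−0.64 to 1.74), IFIT2 one of 0.14 (−0.69 to 0.96), ISG15 one of −0.34 (−2.13 to 1.45) and OASL1 one of −0.42 (−1.80 to 0.96). These intervals include no difference as well as changes of 2-fold for MX1, ISG15 and OASL1. Mara was above Lissy for all 4 genes.

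Of the other roles, IRF7 had a log2 ratio of −0.78 (−2.47 to 0.91) in luteal regression over mid-gestation and IRF4 one of 0.91 (−0.74 to 2.56). TLR4 was lower in both luteal regression dogs than in all mid-gestation dogs, with a log2 ratio of −0.73 (−1.51 to 0.05) and an adjusted p-value of 0.374 in edgeR. For TLR9 it was −0.79 (−2.64 to 1.06), for NLRP1 −0.58 (−2.72 to 1.56) and for REL 1.20 (−0.54 to 2.94). None of these genes was called in edgeR. TRIML1 (ENSCAFG00000007217), a relative of the TRIM proteins, had the largest log2 ratio of the members in this contrast at 4.40 (2.17 to 6.63), with an adjusted p-value of 0.319 in edgeR. It rested on counts of 37 in Lissy and 11 in Mara, against 0, 3, 1, 0 and 1 at mid-gestation. Both luteal regression dogs were above all mid-gestation dogs. TRIML1 passed the filter on low counts through luteal regression alone. Its rank, interval and placing in this contrast are therefore partly fixed by the filter.

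Against antigestagen, edgeR again called 0 of 42 members and 0% of all genes, with 9 members and 17.1% of all genes at an unadjusted p-value below 0.05. DESeq2 called 5 members (6.31% of all genes) and limma-voom 11 (16.5%). RELB was lower in both luteal regression dogs than in all 5 antigestagen dogs, with a log2 ratio of −0.98 (95% interval −1.47 to −0.49) and an adjusted p-value of 0.154 in edgeR. IFIT2 was 2.25-fold higher (log2 ratio 1.17, interval 0.36 to 1.97, adjusted p-value 0.198 in edgeR), also without overlap. Over all genes, 14.3% had all luteal regression dogs above all antigestagen dogs and 15.4% all below.

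**Figure D5:**
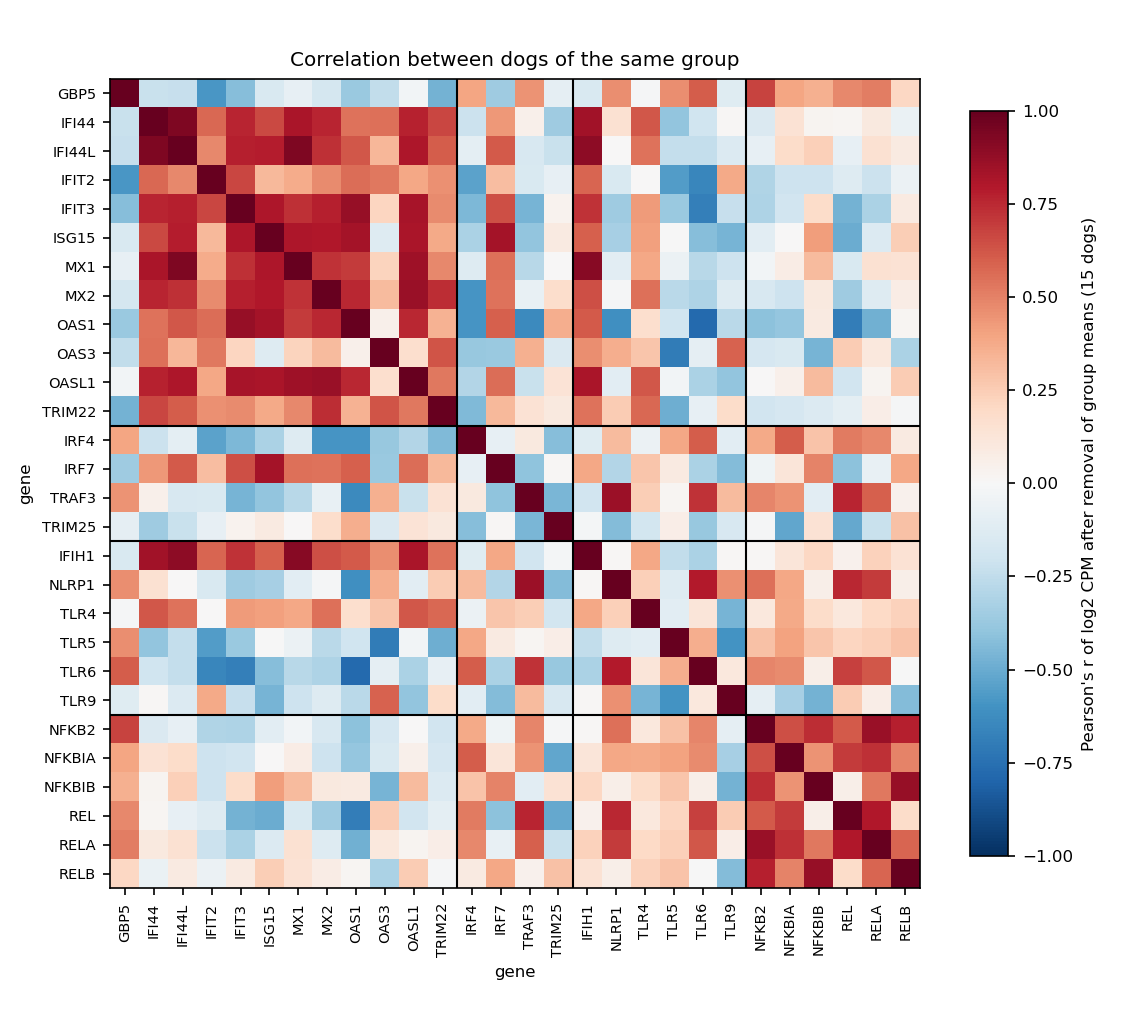
Pearson's r between the log2 CPM of each pair of the 28 genes across the 15 dogs after removal of the group means, with genes in order of role. The block of effectors other than GBP5 and the block of NF-kB genes were mostly red, and the field where the 2 blocks cross was mixed.

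Dogs of the same group also differed from each other. After removal of the group means, the 66 pairs of effectors had a median Pearson's r of 0.57 across the 15 dogs (range −0.58 to 0.94), and 54 of them were positive. The negative values came mainly from GBP5, without which 54 of 55 pairs were positive (median 0.67). The 15 pairs of NF-kB genes had a median of 0.64 and all were positive. The mean over these genes spread most within luteolysis, from 0.00 in Amy to 1.37 in Kimba and 1.82 in Senta. How far the correlations rest on the luteolysis dogs was not tested. Between effectors and NF-kB genes the 72 pairs had a median of −0.02. Over all pairs of the 14922 genes in the model the median was 0.00 and the upper decile 0.546. The points share libraries and their scaling, and the values are a description.

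Some effectors lie side by side in the genome. On the RefSeq annotation of the assembly UU_Cfam_GSD_1.0, which is not the one the reads were aligned to, IFI44 and IFI44L, IFIT2 and IFIT3, MX1 and MX2, and OAS1 and OAS3 each have 0 protein-coding genes between them. They are related copies, and how reads shared by such copies were counted is not given in the sources used here.

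The 8 other TRIM proteins (TRIM8, TRIM11, TRIM29, TRIM46, TRIM63, TRIM65, TRIM72 and TRIML1) share a domain layout with TRIM22 and TRIM25 but are not known mainly for interferon. TRIM63 (ENSCAFG00000012671), a ubiquitin ligase of muscle protein breakdown, had 3.53 ± 0.888 CPM at mid-gestation, 15.8 ± 10.6 CPM under antigestagen, 6.83 ± 2.43 CPM in luteolysis and 3.86 ± 2.77 CPM in luteal regression. All 5 antigestagen dogs were above all mid-gestation dogs, a placing found for 0.667% of all genes. Citir (4.45 CPM) stood only just above Dardanel (4.42 CPM), while Suzan (28.1 CPM) and Birnur (24.9 CPM) were highest. TRIM72 (ENSCAFG00000016872), which repairs the membrane of muscle cells, reached 3.87 CPM in Kimba and 3.77 CPM in Senta and had a count of 0 in Amy, allowing up to 0.225 CPM. TRIM11 (ENSCAFG00000001145) had 11.3 ± 2.47 CPM at mid-gestation, 12.5 ± 2.44 CPM under antigestagen, 6.52 ± 0.104 CPM in luteolysis and 9.54 ± 0.219 CPM in luteal regression, and its 3 luteolysis dogs were below all others. TRIM46 (ENSCAFG00000017047), a protein of axonal microtubules, had 1.08 ± 0.375 CPM at mid-gestation, 1.40 ± 0.490 CPM under antigestagen, 0.454 ± 0.328 CPM in luteolysis and 2.18 ± 0.0388 CPM in luteal regression. Of these 8 genes, 7 were tested in mid-gestation over luteolysis and 2 were called, TRIM11 higher and TRIM72 lower, where 8.16% of all genes were called. Both calls were lost without Kimba or Senta, and that of TRIM11 also without Nescafe, Turgay or Gold.

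Of the 7 genes taken by name only, IRF2BP1, IRF2BP2 and IRF2BPL encode corepressors named after binding to an interferon-regulatory factor. IRF2BP1 (ENSCAFG00000004361) had 14.5 ± 1.83 CPM at mid-gestation, 14.2 ± 4.74 CPM under antigestagen, 8.21 ± 1.37 CPM in luteolysis and 13.8 ± 0.506 CPM in luteal regression, and its luteolysis dogs were below all others. IFITM10 (ENSCAFG00000010028) belongs to the interferon-induced transmembrane family by sequence, and it ranged from 0.771 CPM in Turgay to 18.4 CPM in Nescafe at mid-gestation. RELN (reelin, a secreted glycoprotein), RELT (a receptor of the tumour necrosis factor family) and RELL2 (a RELT-like protein) are not NF-kB subunits. RELL2 (ENSCAFG00000006185) had 2.03 ± 0.575 CPM at mid-gestation, 2.13 ± 1.15 CPM under antigestagen, 5.61 ± 2.39 CPM in luteolysis and 2.30 ± 0.0632 CPM in luteal regression, and was called lower at mid-gestation than in luteolysis (log2 ratio −1.47), a call lost in 13 of 15 refits with 1 dog left out.

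Further genes of the same pathways were looked up from a list of 83, which holds no member. Only 19 could be paired with an identifier, through the study's lists of differing genes, so they were also chosen by measured values. None of 12 genes of the Toll-like receptor pathway was among them. In mid-gestation over luteolysis 6 of 19 were called higher and 7 lower, where 2.43% of all genes were called higher and 5.73% lower. XAF1, an interferon-induced gene of apoptosis, had a log2 ratio of 2.22 ± 0.60 and LGALS3BP, a secreted galectin-binding protein, one of 1.68 ± 0.29. SOD2, the mitochondrial superoxide dismutase and an NF-kB target, had −1.72 ± 0.27 and the chemokine CCL5, another target, −1.83 ± 0.47. Not all interferon-induced genes were higher at mid-gestation: the chemokine CXCL10, named here after its values were seen, was called lower, with a log2 ratio of −1.52 ± 0.40, and lower again in luteal regression than in luteolysis (−1.98 ± 0.55). The former call was lost without Kimba, Senta or Dardanel, the latter without Kimba, Senta, Birnur, Lissy, Mara or Gold. For luteal regression over luteolysis 1 was called higher (DHX58, an RNA helicase of the RIG-I family, log2 ratio 1.04 ± 0.26) and 3 lower, among them SOD2 (−2.05 ± 0.37) and CCL5 (−2.80 ± 0.68), while XAF1 had 2.15 ± 0.68 and was not called. Over all genes 1.52% were called higher and 3.58% lower there. In luteolysis over antigestagen SOD2 was called higher (1.44 ± 0.27) and LGALS3BP lower (−1.59 ± 0.29), and BIRC3 (1.67 ± 0.51) and XAF1 (−1.92 ± 0.59) were not called.

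In the other 3 contrasts edgeR called 0 of the 19 genes, as it called 0% of all genes. An unadjusted p-value below 0.05 was found for 2 of them in mid-gestation over antigestagen, 1 in luteal regression over mid-gestation and 3 in luteal regression over antigestagen. Over all genes these shares were 6.81%, 14.1% and 17.1%. DESeq2 called 0 in each of the 3 contrasts, and limma-voom 0, 1 and 6. For the contrasts with luteal regression, the shares of all genes called by both tools stand with the members above. Nothing is read from these counts about the 19 genes. In mid-gestation over antigestagen the genes of smallest p-value in each direction were MAP3K14 (log2 ratio −0.93), BCL3 (−1.09), DTX3L (0.25) and SAMD9L (0.34). For luteal regression over mid-gestation they were LGALS3BP (−0.72, adjusted p-value 0.341 in edgeR), CCL5 (−0.97), DHX58 (0.44, adjusted p-value 0.396 in edgeR) and JAK1 (0.42). For luteal regression over antigestagen they were BCL3 (−1.43, adjusted p-value 0.244 in edgeR), CCL5 (−1.53, adjusted p-value 0.246), DHX58 (0.65, adjusted p-value 0.213) and DTX3L (0.36).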

How the data were processed

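Reads of poly-A selected RNA, from a kit that does not mark strand and sequenced from a single end, were aligned by the authors with STAR 2.5.1b to CanFam3.1 and counted per Ensembl gene with featureCounts. The deposited file holds these raw counts, without normalization, with 4 significant digits kept in each of the 3148 counts from 10000 upwards. Without strand, reads of a gene and of an antisense partner cannot be told apart.

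Groups were read from the labels. For Nescafe the title and condition give mid-gestation and were followed, while its description carries another group number. The members and lists were chosen with earlier results of these data known. Symbols came from the study's 4 lists of differing genes, whose fold changes and p-values were not used.

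Counts were analysed in R 4.3.3 with edgeR 4.0.16 (TMM, quasi-likelihood F-test, two-sided). Genes reaching a mean count of 10 in a group (14922) entered 1 model of all 15 dogs, and a contrast was tested on genes reaching that mean in 1 of its groups. The SE is the log2 ratio divided by the square root of F. Intervals and floors (3 counts for a count of 0) cover the model's spread and counting error, respectively. In a test on simulated data for mid-gestation over luteolysis (14476 genes), 96% of genes changed 4-fold were recovered, and 9.68% of calls were false. Only genes above a count threshold were changed there, and the spread followed the trend over all genes. The shares need not hold for members with low counts or a wide spread between dogs. Log2 CPM used a prior count of 2.

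Every dog's value is given for pathway genes among the 3 members of largest log2 ratio in either direction in any contrast, other pathway members by group means, and listed genes outside the members by the 2 of smallest p-value in each direction. RELA and NFKBIA were given by dog, after their values were seen. Alternatives were DESeq2 1.42.0 (Wald test), limma-voom 3.58.1 with quality weights, DESeq2 size factors, no filter, a mean count of at least 50, the compared groups alone, a prior count of 0.5 and leaving out each dog.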

Additional observations from a re-analysis of the deposited data

Results flagged for a closer look

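In the groups of 5 dogs, each member was searched for a dog whose gap to its nearest neighbour was more than 0.71 of the range of the group (Dixon's test). Such a dog was found in 15 of 86 checks (17.4%), where chance gives about 1 in 20 and the same check over all genes in the model found one in 8.16% of 29824. The checks are not independent of each other, since the same dogs enter all of them. Zeynep, after antigestagen, stood apart for 6 genes. It was highest for MX1 (91.0 CPM, the other dogs 26.1 to 38.9), IRF7 (6.36, others 0.566 to 1.95), IFIH1 (28.4, others 17.2 to 18.7), IRF2BP1 (22.5, others 11.01 to 13.3) and IRF2BPL (36.5, others 24.5 to 27.8), and lowest for TRAF3 (3.13, others 10.4 to 11.3). Zeynep's library of 12032776 reads was the second smallest.

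Gold, at mid-gestation, was highest for GBP5 (16.2 CPM, others 1.05 to 2.73), NFKBIA (165 CPM, others 86.7 to 103.7) and IRF2BPL (41.8 CPM, others 16.3 to 20.1). Of the other mid-gestation dogs, Dardanel was highest for RELB (30.6 CPM, others 27.6 to 27.9), Turgay for TRIM29 (3.29 CPM, others 0.820 to 1.33) and Nescafe for IFITM10 (18.4 CPM, others 0.771 to 4.61). Kurtulus was lowest for TRIM46 (0.431 CPM, others 1.15 to 1.42) and IRF2BP1 (11.4 CPM, others 14.69 to 15.7). After antigestagen, Suzan was highest for TLR9 (0.769 CPM, others 0 to 0.222). The group means of these genes include these dogs.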

How the results depend on the processing

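Counts of called genes depended on the tool and on single dogs, the directions much less. Not every count is listed here, and those for mid-gestation over luteolysis with DESeq2 and limma-voom are left out. With DESeq2, called members were 22 in luteal regression over luteolysis, 1 in mid-gestation over antigestagen, 16 in luteolysis over antigestagen, 1 in luteal regression over mid-gestation and 5 in luteal regression over antigestagen; called effectors in luteal regression over luteolysis were 9, and called pathway genes 12 there and 6 in luteolysis over antigestagen. Of all genes DESeq2 called 10.6%, 0.604%, 10.3%, 2.26% and 6.31% in these 5 contrasts. With limma-voom, members were 27 in luteal regression over luteolysis, 11 in luteolysis over antigestagen, 5 in luteal regression over mid-gestation and 11 in luteal regression over antigestagen, pathway genes in the same order 15, 8, 1 and 6, and NF-kB genes 6 in luteal regression over luteolysis, where the 4 contrasts had 24.7%, 19.6%, 18.7% and 16.5% of all genes called. With only the compared groups in the model, members were 0 in luteal regression over luteolysis, 9 in mid-gestation over luteolysis, 0 in luteolysis over antigestagen and 1 in luteal regression over mid-gestation, pathway genes 0, 5 and 0 in the first 3 of these, effectors 0 in luteal regression over luteolysis, and NF-kB genes 0 in luteal regression and mid-gestation over luteolysis, against 0%, 2.88%, 0.0207% and 5.24% of all genes in the 4 contrasts. Without a filter 1 NF-kB gene was called in luteal regression over luteolysis, and with a mean count of at least 50, 4 pathway genes in luteolysis over antigestagen. The cause of these shifts was not tested.

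With each dog left out in turn, called members ranged from 0 to 19 in luteal regression over luteolysis, 1 to 25 in mid-gestation over luteolysis, 0 to 1 in mid-gestation over antigestagen, 0 to 15 in luteolysis over antigestagen, 0 to 0 in luteal regression over mid-gestation and 0 to 1 in luteal regression over antigestagen. Pathway genes ranged from 0 to 9, 2 to 14 and 0 to 10 in luteal regression over luteolysis, in mid-gestation over luteolysis and in luteolysis over antigestagen. Effectors ranged from 0 to 6 and 1 to 9, and NF-kB genes from 0 to 5 and 0 to 6, in the first 2 of these. The lowest members' count in mid-gestation over luteolysis was reached without Senta (1), then without Kimba (4), Nescafe (10), Dardanel (12) and Gold (15). For luteal regression over luteolysis the count was 0 without Senta, Lissy or Mara, 5 without Birnur or Gold and 19 without Amy, and in luteolysis over antigestagen 0 without Senta or Kimba and 15 without Amy. Leaving out a luteal regression dog leaves 1, assumed to vary like the other groups. The shares of all genes called in the same refits are not set beside these counts. The effectors' median correlation was 0.43 to 0.62.

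Log2 ratios changed sign in 7 of the refits. In luteal regression over mid-gestation the ranges were −2.46 to 0.48 for ISG15, −1.06 to 0.022 for OASL1, −0.45 to 1.59 for IRF4, −0.26 to 0.44 for IFIT2 and −0.45 to 1.13 for MX1. ISG15 in luteal regression over luteolysis ranged from −0.31 to 2.63, and in mid-gestation over luteolysis OAS3 from −0.089 to 0.39. Of the other refits of named genes, 1405 kept the call, 175 lost it and 33 gained it. With DESeq2 size factors 107 of the named log2 ratios kept their call and 1 gained it, and without a filter 103 kept it and 5 lost it. Each reversal in luteal regression came from leaving out Lissy or Mara. No paired analysis was possible because each library came from a different dog.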

Other observations

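Outside the members, 2924 genes with a symbol were compared with the mean over the 11 interferon-induced effectors other than GBP5. Pearson's r of log2 CPM was taken across the 15 dogs after removal of the group means. The highest Pearson's r were 0.85 for PQLC3, 0.85 for XAF1, 0.82 for PNP, 0.82 for RSAD2 and 0.81 for RTP4. XAF1, RSAD2 (viperin, which blocks viral replication) and RTP4 are known as interferon-induced genes, and PNP is an enzyme of purine salvage. RSAD2 had 2.40 ± 1.49 CPM (SD, n = 5) at mid-gestation, 1.53 ± 1.71 CPM after antigestagen (n = 5), 0.220 ± 0.152 CPM in luteolysis (n = 3) and 2.76 ± 3.21 CPM in luteal regression (n = 2). These genes were named after their values were seen, and all names come from lists of genes that differed between the groups. The correlations are a description without a test.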
